A study of Mus musculus with 5 samples.

Results

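Peaks of Hoxa9 and C/EBPα that lay in or against Polycomb-marked chromatin were examined in mouse hematopoietic progenitor cells. They were the rows of the Hoxa9 and C/EBPα peak lists that shared at least 1 bp with a region called for H3K27me3. The rule found 651 of 33024 factor peaks. Of these, 98 came from the 6578 Hoxa9 peaks and 553 from the 26446 C/EBPα peaks, which are 1.49% and 2.09% of each list. They were chosen by the positions of the calls in 3 lists, so these shares are a description. With at least 50% of a peak required inside the region, the shares were 0.791% and 1.49%. The label, factor peaks within Polycomb-marked chromatin, fitted only part of them, since 216 of the 651 had their summit, the position of highest signal, outside the region.

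All libraries came from bone marrow progenitors of C57B6 mice, depleted of cells that carry lineage markers, transduced with the retroviruses MIGR1-HA-Hoxa9 and MIGR1-Flag-Meis1 and cultured with IL3. Every library, the input included, therefore carried both transgenes. Hoxa9 was precipitated through its HA tag, so the Hoxa9 peaks are those of the transduced protein and not of the endogenous one. C/EBPα, H3K4me1 and H3K27me3 were precipitated with antibodies against themselves, and there was 1 library of each. No value below has a replicate error. Intervals in parentheses are at 95% and exact (Clopper-Pearson for shares, order statistics for medians, Poisson for densities). They cover counting error only and treat neighbouring peaks as independent.

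H3K27me3 is placed on histone H3 by a Polycomb complex that contains Ezh1 or Ezh2, and it marks genes that are kept silent, among them many developmental regulators. H3K4me1 marks enhancers, active or poised. Hoxa9 is a homeodomain factor of early blood progenitors that drives leukemia when it is overexpressed with its cofactor Meis1, and C/EBPα, which binds DNA through a basic leucine zipper, directs granulocyte and monocyte differentiation. An enhancer that carries both marks is called poised.

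No source used here gives the depth of the libraries. The fewest tags (aligned reads counted in a peak) in any called peak were 17 for Hoxa9 and 15 for C/EBPα, and a site with fewer may be bound and missing from the lists. A factor described as absent had no called peak. Positions are in mm9, counted from 1. No gene annotation or genome of that build was used, so peaks are given by position and without gene names or sequence.

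Peaks with the summit inside an H3K27me3 region were weaker than those that only touched one. The summit lay inside in 49 of the 98 Hoxa9 peaks (39.7% to 60.3%) and in 386 C/EBPα peaks, 69.8% of the 553 (65.8 to 73.6). Over the whole lists, summits inside such a region made up 0.745% of Hoxa9 and 1.46% of C/EBPα peaks. The other 49 Hoxa9 and 167 C/EBPα peaks reached the region with a flank alone. Among Hoxa9 peaks of the set with a p score of 100 or more, 22.4% had the summit inside. With H3K27me3 regions up to 1 kb apart joined, 74.3% of Hoxa9 and 76.5% of C/EBPα peaks had it inside. Inside and outside peaks were compared only on regions as called, not on joined ones. The p score is 10 times −log10 of the caller's p, and the lists begin at 50.01.

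Inside, Hoxa9 peaks held a median of 21 tags (19 to 26), with quartiles of 18 and 30 and a highest value of 109. Hoxa9 peaks with the summit outside held 42 (36 to 54), with quartiles of 32 and 65 and a highest value of 257. The 6480 Hoxa9 peaks free of H3K27me3 held 32. The inside median was thus close to the 17 tags of the weakest peak in the list, whereas the touching peaks stood above the list.

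C/EBPα peaks were ordered in the same way. The median was 25 tags (23 to 27) inside and 40 (33 to 50) outside, against 35 in the 25893 C/EBPα peaks free of H3K27me3. Fold enrichment, the authors' ratio of a peak to its local background, followed. For Hoxa9 its median was 5.15 (4.72 to 5.82) inside and 8.33 (6.94 to 10.62) outside, against 6.06 in peaks without the mark. For C/EBPα it was 6.605 (6.27 to 6.91) inside and 9.19 (7.51 to 10.34) outside, against 7.75.

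A fold of 10 or higher was reached by 2 of 49 inside and 19 of 49 outside Hoxa9 peaks, where 16.7% of the whole list reached it. For C/EBPα, 82 of 386 inside and 73 of 167 outside peaks did, where the whole list had 35.7%. Width enters the choice of the touching peaks, because a wide peak reaches a region from farther away. Their median width was 773 bp for Hoxa9 and 669 bp for C/EBPα, against 651 and 640 bp in peaks without H3K27me3. The part of width in their strength was not tested. The median tags per bp of peak were 0.0445 inside and 0.0573 outside for Hoxa9, against 0.0489 without the mark, and 0.0469 and 0.0613 for C/EBPα, against 0.0542.

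**Figure D1:**
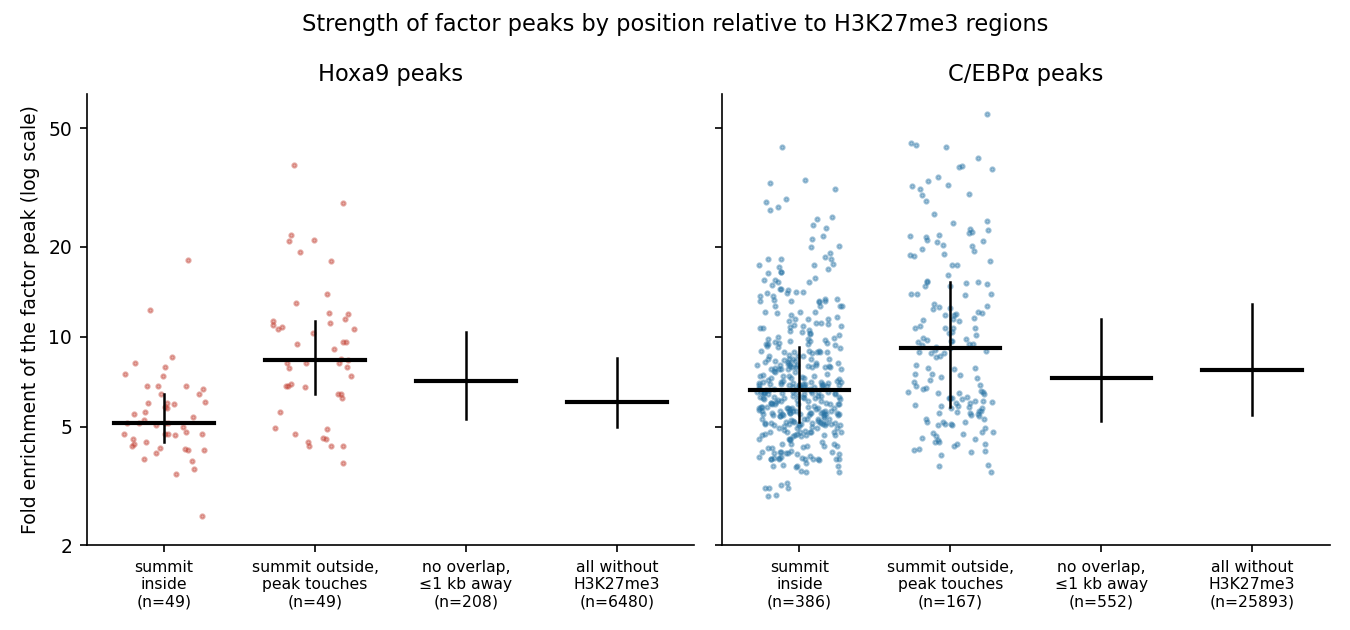
Fold enrichment (log scale) of each Hoxa9 and C/EBPα peak that shares sequence with an H3K27me3 region, 1 point per peak, by position of its summit, with the medians (thick bars) and quartiles (thin lines) of these groups, of peaks within 1 kb of a region and of all peaks without H3K27me3. The median for Hoxa9 is 5.15 for summits inside and 8.33 for summits outside.

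The strongest Hoxa9 peak with its summit inside lay at chr5:135500560-135501591, with 109 tags and a fold enrichment of 18.04. Its summit was 4027 bp from the nearest edge of a region of 8667 bp, and a C/EBPα summit was 2 bp away. The next, chr13:96212680-96213562, had 76 tags and a fold enrichment of 12.33, and its summit lay 206 bp inside a region of 2078 bp. No other Hoxa9 peak with its summit inside reached a fold enrichment of 10. The following 3 by score, at chr9:70079545-70080397, chr18:57216241-57217011 and chr6:94631410-94632193, held 41 to 50 tags at fold enrichments from 6.43 to 7.92. All 5 overlapped H3K4me1, and 4 of them a C/EBPα peak.

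Of C/EBPα peaks inside H3K27me3, the highest score was at chr11:84335686-84336800, with 211 tags and a fold enrichment of 43.21, at 8680 bp from the edge of a region of 27337 bp. The peak at chr4:151648731-151649646 had 144 tags, a fold enrichment of 31.28 and an edge distance of 1698 bp. The other 3 of the top 5, at chr13:115246982-115247950, chr19:45332256-45333004 and chr4:150211375-150212274, had their summits only 51, 68 and 7 bp inside. So 3 of the 5 strongest sat at the very edge. All 5 overlapped H3K4me1, and 0 overlapped a Hoxa9 peak, as few C/EBPα peaks did at all (14.2% of the list and 9 of the 386 inside).

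Among the touching peaks, the strongest of Hoxa9 was at chr4:117099687-117100930, with 257 tags, a fold enrichment of 37.58 and its summit 561 bp outside a region of 3905 bp. The second, at chr3:115501820-115503340, had 250 tags and a fold enrichment of 28.07, and its summit lay 779 bp outside. The next 3, at chr4:150182258-150183288, chr11:83727156-83728146 and chr10:20456604-20457626, had 118 to 140 tags each. All 5 overlapped both H3K4me1 and a C/EBPα peak with a summit 34 to 265 bp away. Of C/EBPα, the strongest touching peak was at chr11:59356453-59357591, with 218 tags and a fold enrichment of 55.91. The other 4 of its top 5, at chr5:102909989-102910984, chr14:118770175-118771557, chr9:63869231-63870413 and chr5:135277754-135278944, had fold enrichments from 34.31 to 44.44. The peak on chromosome 9 had its summit 1 bp outside, and the peak on chromosome 14 shared 1 bp with its region. Of these 5, the last also overlapped a Hoxa9 peak.

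The share of peaks with the enhancer mark differed with the position of the summit. H3K4me1 overlapped 67 of the 98 Hoxa9 peaks, 68.4% (58.2 to 77.4), and 363 of the 553 C/EBPα peaks, 65.6% (61.5 to 69.6). The whole lists had 82.4% and 73.6%. With the summit inside, the share was 42.9% for Hoxa9 (28.8 to 57.8) and 61.1% for C/EBPα (56.1 to 66.0). With the summit outside it was 93.9% (83.1 to 98.7) and 76.0% (68.8 to 82.3), against 82.7% and 73.7% in peaks without H3K27me3. For Hoxa9 the intervals of inside and outside peaks lay far apart. The share over all 98 Hoxa9 peaks therefore depended on which peaks were admitted. It was 42.3% if at least 50% of the peak had to lie inside the region and 95.9% at a p score of 100 or more. At that score 47 of 49 Hoxa9 peaks carried H3K4me1, and 11 of 49 had the summit inside. Inside peaks were also the weaker ones, and the part of strength in the H3K4me1 shares was not tested. An H3K4me1 region held the summit itself in 20 of 49 inside and 42 of 49 outside Hoxa9 peaks, and in 68.6% of the Hoxa9 list. For C/EBPα it did so in 202 of 386 inside and 106 of 167 outside peaks, and in 62.8% of the list. In regions of 2 kb or more, 18 of 37 inside Hoxa9 peaks and 66.6% of 299 inside C/EBPα peaks carried H3K4me1. In regions under 2 kb, 3 of 12 and 42.5% of 87 did.

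The H3K4me1 regions at these peaks were shorter than those at peaks without H3K27me3. Those at inside peaks had a median length of 1251 bp for Hoxa9 and 1282 bp for C/EBPα, and those at outside peaks 1350 and 1465 bp. At peaks without H3K27me3 the medians were 2145 and 1790 bp. All of these exceeded the median of the whole H3K4me1 list, 768 bp. At touching peaks the H3K4me1 region itself mostly ran into an H3K27me3 region, in 42 of 46 Hoxa9 and 112 of 127 C/EBPα peaks. Among peaks with H3K4me1 but without H3K27me3, it did so at 1.72% for Hoxa9 and 1.07% for C/EBPα. The touching peaks were chosen for reaching an H3K27me3 region, which favours such contact, so these counts are a description.

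Among inside peaks, those with H3K4me1 were the stronger ones. The 21 such Hoxa9 peaks had medians of 30 tags and a fold enrichment of 6.43, against 18 tags and 4.885 in the 28 without the mark. The 236 such C/EBPα peaks had 31.5 tags and 7.365, against 21 tags and 5.75 in the 150 without it. The same split was seen away from H3K27me3, where Hoxa9 peaks held 36 tags with H3K4me1 and 19 without it, and C/EBPα peaks 41 and 24. Inside peaks with H3K4me1 also lay deeper, at a median of 2003 bp from the edge for Hoxa9 (206 to 4027) against 405.5 bp without it (353 to 969). For C/EBPα the medians were 1336.5 bp with the mark (1061 to 1764) and 444 bp without it (325 to 592). The Hoxa9 intervals overlap, and those of C/EBPα do not. The regions of peaks with H3K4me1 were also longer, which allows greater distances. Their median length was 7891 bp with the mark and 3475 bp without it for Hoxa9, and 5440.5 and 3931.5 bp for C/EBPα. The part of region length in these distances was not tested.

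Which factor was present also differed with the position of the summit. Most peaks of the set held a single called factor: 59 Hoxa9 peaks had no C/EBPα peak, and 515 C/EBPα peaks had no Hoxa9 peak. C/EBPα overlapped 39 of the 98 Hoxa9 peaks, 39.8% (30.0 to 50.2), where the whole list had 56.9%. Hoxa9 overlapped 38 of the 553 C/EBPα peaks, 6.87% (4.91 to 9.31), where the whole list had 14.2%. Among Hoxa9 peaks the share was 22.4% inside (11.8 to 36.6) and 57.1% outside (42.2 to 71.2), against 57.1% without H3K27me3. Among C/EBPα peaks it was 2.33% inside (1.07 to 4.38) and 17.4% outside (11.9 to 24.0), against 14.4%. The lower sharing thus belonged to the summits inside, and the touching peaks had shares near those of the unmarked peaks. With at least 50% of the peak inside the region, 21.2% of the Hoxa9 and 2.54% of the C/EBPα peaks were shared. Inside, the 11 shared Hoxa9 peaks had a median of 38 tags and the 38 unshared ones 20.5, and the part of strength in these shares was not tested. With a closer limit, a C/EBPα summit lay within 200 bp in 10 of 49 inside and 24 of 49 outside Hoxa9 peaks, where the whole list had 46.4%. A Hoxa9 summit lay within 200 bp in 8 of 386 inside and 28 of 167 outside C/EBPα peaks, where the whole list had 11.6%.

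The 39 shared Hoxa9 peaks formed 39 pairs with a C/EBPα peak, with a median of 57 bp between the summits. Both summits lay inside the same region in 9 pairs, both outside in 28, and on different sides of an edge in 2. In 9 of the pairs the C/EBPα peak itself did not reach the H3K27me3 region. Of the 9 pairs inside, 8 lay in regions of 2 kb or more. Besides the pairs on chromosomes 5, 13 and 9 already given, these were at chr6:94134132-94134711, chr2:36056778-36057415, chr11:61131733-61132163, chr11:23975032-23975490 and chr15:88977405-88977992, named by their Hoxa9 peak. Their summits were 1 to 130 bp apart in these 5 and 347 bp apart at the widest of the 8. Of the 8, 7 carried H3K4me1, the exception being the pair at chr11:61131733-61132163.

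**Figure D2:**
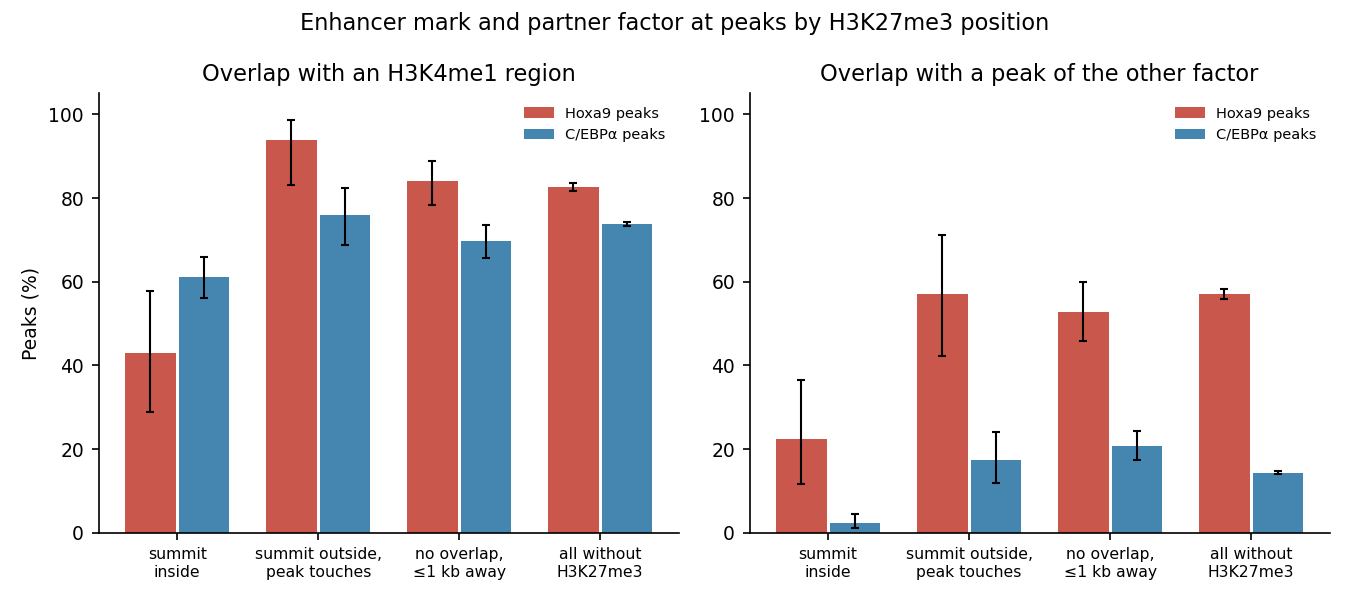
Share of Hoxa9 and C/EBPα peaks that overlap an H3K4me1 region (left) or a peak of the other factor (right), by position relative to H3K27me3, with exact 95% intervals as bars. Among Hoxa9 peaks with the summit inside, 42.9% overlap H3K4me1 and 22.4% C/EBPα, both below peaks that only touch a region or lie within 1 kb of one.

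Region length separated the calls into a large class of short regions and a small class of long ones. Of the 33769 H3K27me3 regions, 26095 were under 2 kb and 7674 measured 2 kb or more, and the long ones held 41.6 of the 64.5 Mb covered. Of the Hoxa9 peaks 67 of 98 met a long region, and of the C/EBPα peaks 393 of 553. The summit was inside in 37 of those 67 Hoxa9 peaks and in 12 of the 31 at short regions. For C/EBPα it was inside in 299 of 393 at long and 87 of 160 at short regions. Among Hoxa9 peaks in this set, regions just below the limit measured 1961 and 1967 bp and those just above it 2078 and 2163 bp. With a limit of 5 kb in place of 2 kb, 44.9% of the Hoxa9 and 42.7% of the C/EBPα peaks met a long region.

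Per Mb of H3K27me3 region there were 0.759 Hoxa9 summits (0.562 to 1.004) and 5.98 C/EBPα summits (5.40 to 6.61), against 2.60 and 10.4 per Mb outside all regions, within the span that the lists cover on each chromosome. C/EBPα summits were denser in regions of 2 kb or more than in shorter ones, with 3.34 per Mb in regions under 1 kb, 4.37 in regions of 1 to 2 kb, 6.89 at 2 to 5 kb, 6.58 at 5 to 10 kb and 8.35 (6.76 to 10.2) at 10 kb or more. Hoxa9 had 0.855, 0.0994, 0.976, 0.815 and 0.870 per Mb in the same classes. The second value rests on 1 summit in 10.1 Mb. Hoxa9 had 0.523 per Mb (0.270 to 0.914) in all regions under 2 kb. In regions of 2 kb or more it had 0.889 (0.626 to 1.23). That was the same direction as for C/EBPα, but these Hoxa9 intervals overlap. In regions of 10 kb or more, 12.2% held a C/EBPα summit and 1.45% a Hoxa9 summit. Over all regions these shares were 1.09% and 0.145%, and a longer region offers more sequence to hold a summit.

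The density per Mb differed with the enhancer mark. Where sequence was covered by both marks (5.92 Mb), C/EBPα had 34.1 summits per Mb (29.6 to 39.2) and Hoxa9 3.38 (2.06 to 5.22). In H3K27me3 without H3K4me1 these values were 3.14 and 0.495, and in H3K4me1 without H3K27me3 they were 145 and 39.6. Within H3K4me1, the density with H3K27me3 was thus lower than without it for both factors. Sequence with neither mark had 4.03 C/EBPα and 0.849 Hoxa9 summits per Mb, above the values in H3K27me3 alone.

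Long regions with a factor summit inside were themselves more often marked by H3K4me1. Of the 308 such regions, 87.0% overlapped H3K4me1 (82.7 to 90.6), as did 86.9% of the 99 that were only touched (78.6 to 92.8). Of the 7267 long regions with no factor peak, 44.7% did (43.6 to 45.9). Their median lengths were 6559.5, 4850 and 3985 bp, and a longer region meets any other list more often. Among regions under 2 kb, 43.9% of the 98 with a summit inside, 77.4% of the 84 only touched and 4.75% of the 25913 with no factor peak overlapped H3K4me1.

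Inside the regions, summits were found at all depths. The median distance from the nearest edge was 859 bp for Hoxa9 (362 to 1681) and 834 bp for C/EBPα (646 to 1167), with highest values of 6671 and 35598 bp. When regions up to 1 kb apart were joined, these medians were 3293 and 2011.5 bp, and at a p score of 100 or more the Hoxa9 median was 345 bp. Each long region was divided from edge to centre into 4 bands of equal total length. From the outermost band inward, Hoxa9 had 11, 9, 7 and 10 of its 37 summits in them. C/EBPα had 97, 46, 78 and 78 of its 299, so the outermost band held 32.4% (27.2 to 38.1). Median fold enrichment of C/EBPα was 6.89, 6.90, 6.66 and 6.515 in these bands. The share with H3K4me1 was 51.5% in the outermost and 76.9% in the innermost. The enrichment of C/EBPα peaks thus differed little between edge and centre, while their share with H3K4me1 was higher in the inner bands.

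The deepest Hoxa9 summit, at chr16:30066214-30066726, lay 6671 bp from the edge of a region of 16224 bp and had 24 tags. The next, at chr12:85103727-85104228, lay 6381 bp inside. The one after it, at chr11:96180396-96181037, lay 5680 bp inside a region of 77150 bp. All 3 overlapped H3K4me1 and had no C/EBPα peak. A further pair, at chr15:88977405-88977992 and chr9:70079545-70080397, lay 4797 and 4616 bp inside, and both overlapped C/EBPα. In all, 10 Hoxa9 summits lay inside regions of 10 kb or more. Besides these 5, they were at chr11:23975032-23975490, chr11:97425821-97426461, chr2:84575490-84575882, chr6:94134132-94134711 and chr8:90974506-90975134. The 10 held 17 to 50 tags, 9 overlapped H3K4me1 and 4 overlapped C/EBPα, where the whole Hoxa9 list had 82.4% and 56.9%.

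The deepest C/EBPα summit, at chr2:74519491-74519892, lay 35598 bp inside a region of 75164 bp, with 15 tags and no H3K4me1. The others of the 5 deepest carried H3K4me1. They were chr3:96255091-96255669 with 60 tags at 17593 bp, chr2:31495287-31496114 with 53 tags at 15831 bp, and both chr2:71376819-71377480 and chr2:71375940-71376604, with 39 and 57 tags at 16160 and 15671 bp in a single region. That region, chr2:71360624-71393328, held 3 C/EBPα summits, with fold enrichments of 20.01, 15.23 and 10.7, all with H3K4me1. The region chr3:93245739-93256044 also held 3, at fold enrichments of 7.47, 6.54 and 4.12. Of all regions, 379 held 1 factor summit, 25 held 2 and 2 held 3. Both regions with 3 summits held C/EBPα alone, and 12 of the 25 with 2 summits held a summit of each factor. The longest regions with 2 summits, at chr3:96237446-96272945 and chr9:69597969-69622910, held C/EBPα alone.

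The sequence just outside long H3K27me3 regions was rich in summits of both factors. Counting every summit in the lists, and not only those of peaks that touched a region, Hoxa9 had 13.8 summits per Mb (10.6 to 17.7) at 0.5 to 1 kb outside regions of 2 kb or more. At 0 to 0.5 kb outside it had 7.08 (5.06 to 9.64), at 1 to 2 kb 4.57 and at 2 to 5 kb 1.57, against 2.60 over all sequence outside regions. On the inner side it had 1.56 in the first 0.25 kb and 0.652 at 0.5 to 1 kb. C/EBPα had 25.5 summits per Mb at 0 to 0.5 kb outside (21.5 to 30.0) and 27.4 at 0.5 to 1 kb (22.7 to 32.7), against 10.4 over all sequence outside regions. It had 12.5 in the first 0.25 kb inside and 5.73 at 0.5 to 1 kb. In the 1 kb outside regions under 2 kb the values were lower, with 3.83 and 1.64 per Mb for Hoxa9 and 9.85 and 6.36 for C/EBPα, the farther bin first.

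**Figure D3:**
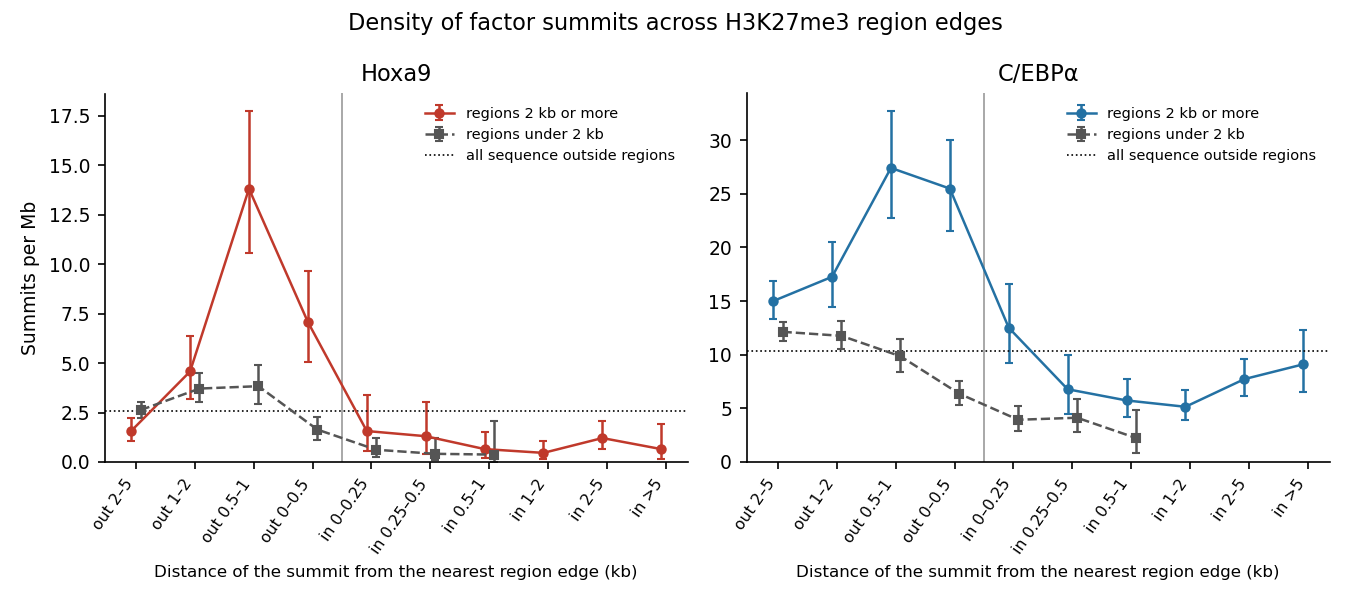
Summits of Hoxa9 (left) and C/EBPα (right) per Mb of sequence, by distance of the summit from the nearest H3K27me3 region edge, outside to the left of the vertical line and inside to the right, with exact Poisson 95% intervals. Hoxa9 reaches 13.8 per Mb at 0.5 to 1 kb outside regions of 2 kb or more, against 2.60 in all sequence outside regions (dotted line).

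Part of this came from narrow gaps between a pair of long regions. Gaps of 1 to 2 kb with a region of 2 kb or more on each side numbered 176 and spanned 0.253 Mb. They held 25 Hoxa9 summits, or 99.0 per Mb (64.1 to 146), and 30 C/EBPα summits, or 119 per Mb (80.1 to 170). A Hoxa9 summit was present in 14.2% of these gaps and a C/EBPα summit in 16.5%. Gaps of 0.5 to 1 kb held 60.02 and 135 per Mb, gaps of 2 to 5 kb 29.4 and 62.8, and gaps of 5 to 20 kb 3.33 and 17.1. Where both flanks were under 2 kb, gaps of 1 to 2 kb held 3.78 Hoxa9 and 9.14 C/EBPα summits per Mb. With 1 long flank they held 11.9 (6.79 to 19.3) and 26.7 (18.7 to 37.0), between the other classes. These too were above the 2.60 and 10.4 outside all regions. The classes also differed in H3K4me1, which overlapped 39.8% of gaps of 1 to 2 kb with both flanks long. It overlapped 13.7% of those with 1 long flank and 5.28% of those with both flanks under 2 kb. The part of H3K4me1 in the difference between flank classes was not tested.

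**Figure D4:**
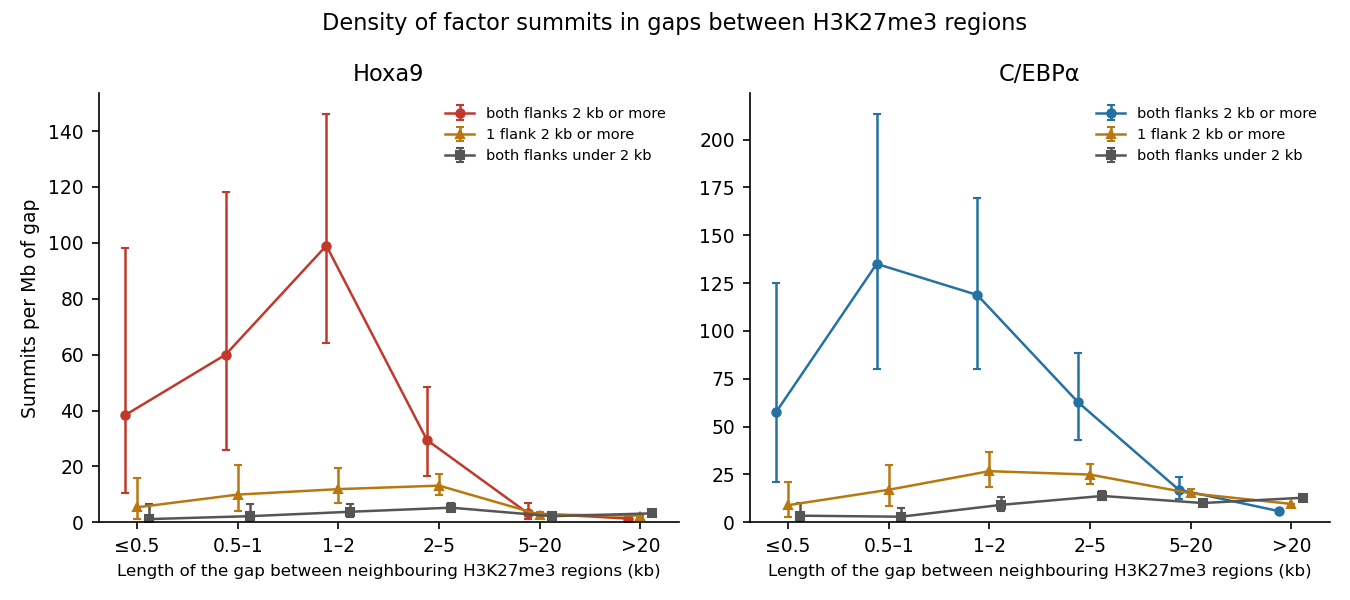
Summits of Hoxa9 (left) and C/EBPα (right) per Mb of gap between neighbouring H3K27me3 regions, by gap length and by length of the flanking regions, with exact Poisson 95% intervals. Gaps of 1 to 2 kb between regions of 2 kb or more hold 99.0 Hoxa9 summits per Mb, against 3.78 where both flanks are shorter. The flank classes also differ in their overlap with H3K4me1.

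These gaps were also where H3K4me1 lay between H3K27me3. Of the 353 gaps over 0.5 and up to 2 kb between long regions, 122 overlapped H3K4me1. Of those 122, 31 held a Hoxa9 summit, 43 a C/EBPα summit and 20 both. Of the 231 without H3K4me1, 2 held a Hoxa9 summit and 4 a C/EBPα summit. Per Mb of H3K4me1, gaps of up to 2 kb between long regions held 270 Hoxa9 summits (182 to 386) and 405 C/EBPα summits (296 to 542). All H3K4me1 without H3K27me3 held 39.6 and 145. Per Mb of H3K4me1, too, both factors were thus denser in the gaps. Called H3K4me1 in these gaps came to 0.111 Mb, and an H3K4me1 region that runs on into the flanks was counted only for its part in the gap.

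Hoxa9 peaks with the summit in a gap of 1 to 2 kb between long regions had a median of 45 tags and a fold enrichment of 7.89, and 11 of 25 had a fold enrichment of at least 10. Of all Hoxa9 peaks in gaps of 0.5 to 2 kb, the highest scores belonged to chr3:115501820-115503340, in a gap of 1549 bp between regions of 5166 and 9892 bp, and to chr5:118654220-118655428, in a gap of 1765 bp between regions of 18353 and 15792 bp. The second had 177 tags and a fold enrichment of 32.38 and did not touch either region. The following 3, at chr4:150182258-150183288, chr11:83727156-83728146 and chr14:121876982-121878035, lay in gaps of 830 to 1424 bp. All 5 overlapped H3K4me1 and C/EBPα. In the gap on chromosome 11, between regions of 7685 and 11356 bp, the C/EBPα peak had 179 tags and a fold enrichment of 31.17. These gap peaks were picked out after the gap densities had been seen.

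Of the 49 touching Hoxa9 peaks, 36 had their summit in a gap of at most 2 kb between H3K27me3 regions of any length, a share of 73.5% (58.9 to 85.1). Of the 167 touching C/EBPα peaks 64 did, or 38.3% (30.9 to 46.2). Touching peaks were chosen for reaching a region, which a peak in a narrow gap does more easily, so these shares are a description. A region was touched on both sides of the summit by 8 Hoxa9 and 11 C/EBPα peaks.

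At the limit of the rule, the 3 Hoxa9 peaks with the least overlap shared 6, 10 and 14 bp with a region, and the 3 nearest outside the rule stopped 5, 8 and 10 bp short. Their fold enrichments were 21.03, 12.01 and 5.58, against 5.10, 5.15 and 7.02 in the nearest peaks left out. For C/EBPα the least overlaps were 1, 3 and 3 bp and the nearest misses 3, 4 and 4 bp. Peaks without overlap but within 1 kb of a region lay between the inside and the touching class in enrichment and H3K4me1. In the 208 such Hoxa9 peaks the median fold enrichment was 7.12, and 84.1% overlapped H3K4me1 and 52.9% C/EBPα. In the 552 such C/EBPα peaks it was 7.255, and 69.7% overlapped H3K4me1 and 20.7% Hoxa9.

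A few rows stood apart by tag density. One C/EBPα peak in the set, at chr17:39979697-39985964, held 5916 tags in 6268 bp and lay in an H3K27me3 region of 2.07 tags per bp, the densest of that list. A pair of further C/EBPα peaks lay in a region on chromosome 1 of 0.652 tags per bp. No Hoxa9 peak of the set had 0.5 or more tags per bp or met such a region. The densest region that one met had 0.427 tags per bp, at chr11:88831041-88832365. That Hoxa9 peak held 99 tags at a fold enrichment of 2.51, the lowest among Hoxa9 peaks of the set. Its many tags thus did not mean high enrichment. Leaving out all rows of 0.5 or more tags per bp moved no share or median of the set past its counting interval.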

How the data were processed

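ChIP-seq peak lists of Hoxa9, C/EBPα, H3K4me1 and H3K27me3, from 1 library each, were used; the input library was not used here. The submitters' processing notes name BWA 0.6.2, MACS 1.4, CASAVA 1.8.2 and the build mm9. Caller settings and control library: not given in the sources used here. Tag counts, per the file headers, are whole numbers of tags in a peak, as deposited and not normalized. The p score was deposited as −log10 of a p-value times 10, fold enrichment as a linear ratio, and false discovery rate as a percent. Position, width and summit are the authors' too. Peaks were called per library, so values are compared only within a list.

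Overlaps were computed with Python 3.11.15, numpy 2.4.6, pandas 2.3.3 and scipy 1.17.1, and figures drawn with matplotlib 3.10.9. A summit was placed at the start plus the summit offset, less 1 bp, and may be off by 1 bp. A peak was assigned to the region that held its summit, otherwise to that of longest overlap. Gaps are the stretches between neighbouring regions. A stretch between called regions is not shown to lack the mark. No significance test was made: there were no replicates, and the calls chose the members. Members, classes and lists were chosen with earlier results of these data known, and the gap densities and their alternatives were added after seeing the data. Named peaks are the 5 highest scores inside and outside, the 5 deepest summits, Hoxa9 summits in regions of 10 kb or more, pairs inside 1 region of 2 kb or more, the 4 regions with most summits (ties by length, which chose 2 of 25 regions with 2 summits), and those at the limits of the rule. The 5 highest scoring gap peaks were added, as was the densest row. The code was checked on simulated peaks with known positions. Alternatives changed the overlap limit, the p score limits, the length limit, the joining of regions and the definition of a shared mark or factor.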

Additional observations from a re-analysis of the deposited data

How the results depend on the processing

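Of 88 alternatives to 18 results, 58 left the value inside its 95% counting interval and 30 moved it past that interval, 10 of them by over 1.5 times. With at least 50% of the peak inside the region, 0.791% of Hoxa9 and 1.49% of C/EBPα peaks remained in the set, 78.4% of the C/EBPα peaks were in regions of 2 kb or more, and 42.3% of the Hoxa9 peaks had H3K4me1. The other factor was then present at 21.2% of Hoxa9 and 2.54% of C/EBPα peaks, and Hoxa9 peaks had a median of 21 tags and a fold enrichment of 5.15. With H3K27me3 scores of 100 or more, 1.87% of C/EBPα peaks qualified, and 79.8% of Hoxa9 and 79.96% of C/EBPα peaks were in long regions. With factor scores of 100 or more, 1.90% of C/EBPα peaks qualified. Summits were then inside in 22.4% of Hoxa9 and 65.8% of C/EBPα peaks, 95.9% and 75% had H3K4me1, 53.1% of Hoxa9 peaks had C/EBPα, and the median Hoxa9 edge distance was 345 bp. Joining regions up to 1 kb apart put 74.3% of Hoxa9 and 76.5% of C/EBPα summits inside and 85.1% and 84.8% of peaks in long regions, with median edge distances of 3293 and 2011.5 bp. At a length limit of 1 kb, 79.6% of Hoxa9 and 85.5% of C/EBPα peaks were in long regions, and at 5 kb 44.9% and 42.7%. H3K4me1 was present at 55.7% of C/EBPα peaks by summit and at 59.3% with H3K4me1 scores of 100 or more. The construction of the alternatives shows part of this, since fewer or longer regions and fewer peaks enter; beyond that the cause was not tested. The summit densities in gaps of 1 to 2 kb between long regions stayed within their intervals under each of 3 alternatives chosen after seeing the data. No paired analysis was possible because each group had 1 library. Depth limits what a missing partner means, since a site under the fewest called tags, 17 for Hoxa9 and 15 for C/EBPα, is not in the lists.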

Other observations

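On the X chromosome, 23 of the 569 C/EBPα peaks overlapped H3K27me3, a share of 4.04% (2.58 to 6.004). The autosomes had a median of 1.93%, from 1.26% on chromosome 10 to 2.90% on chromosome 4 (2.11 to 3.89). The share on X lay above the highest autosome, but its interval overlaps that of chromosome 4. For Hoxa9 the share on X was 1.53%, from 2 of 131 peaks, and the autosomes ran from 0.426% on chromosome 1 to 2.45% on chromosome 18. The H3K27me3 regions of 2 kb or more were also put in 4 classes of equal number by their own tags per bp. From the lowest to the highest class they held 4.26, 6.50, 7.74 and 8.03 C/EBPα summits per Mb. Summits of C/EBPα were thus not sparser in the more strongly marked regions. The median region length rose in the same order, at 2542, 3387.5, 4850 and 7148 bp, and the part of length in these densities was not tested. Hoxa9 had 0.741, 1.33, 0.900 and 0.740 per Mb in the same classes, from 4, 10, 10 and 13 summits. Under 2 kb, regions with H3K4me1 held 27.7 C/EBPα summits per Mb (19.9 to 37.6), against 2.14 in those without it (1.57 to 2.86).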
